A study of Mus musculus with 12 samples.

Results

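The oocyte Fbxw cluster genes are a row of neighbouring mouse genes that encode F-box proteins with WD40 repeats. The 10 genes described here, Fbxw13, Fbxw14, Fbxw15, Fbxw16, Fbxw18, Fbxw19, Fbxw20, Fbxw21, Fbxw22 and Fbxw24, were chosen by name, and each was found among the 24999 genes and repeats that the quantification gave after transcripts were summed by gene. They were measured in mouse zygotes of strain B6D2F1 from superovulated females of 8 to 10 weeks, collected at 18 to 20 h after human chorionic gonadotropin, in 12 libraries that form 6 groups of 2. In the RNA-seq, the Lsm1_KD group received siRNA against Lsm1 and the Ctrl group scramble siRNA, and each library pooled a few zygotes. In the RNA immunoprecipitation sequencing (RIP-seq), the FLAG group received mRNA for LSM1 with a FLAG tag (Lsm1_3XFlag), and its control is labelled as injected with Lsm1 mRNA without the tag and titled IgG. Both were pulled down with the same anti-FLAG gel (IP), and RNA of each lysate was sequenced as Input. The labels place the siRNA injection in the zygote, whereas the study's scheme of the knockdown places it in the immature oocyte, and which was used for these libraries is not given in the sources used here. The knockdown is partial, and the Lsm1 carried by the FLAG group comes from injected mRNA rather than from the gene.

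F-box proteins are the substrate receptors of SCF ubiquitin ligases, in which the F-box holds the adaptor SKP1, the scaffold CUL1 carries the RING protein RBX1, and a further domain, here the WD40 repeats, recognises the protein to be tagged with ubiquitin. The Fbxw genes of this cluster are transcribed in growing oocytes, and their mRNAs are part of the maternal store that the zygote inherits and later clears. LSM1 is a subunit of the cytoplasmic LSM1-7 ring, which binds the ends of deadenylated mRNAs and promotes removal of the cap, so its loss is usually discussed as slower mRNA decay. The comparison of Lsm1_KD with Ctrl asks which RNAs change in level when LSM1 is reduced, and the pulldown asks which RNAs are carried with the tagged protein.

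The targeted gene checked the labels of the knockdown. Lsm1 measured 63.7 and 71.0 normalised CPM (counts scaled to library size and composition) in the Lsm1_KD libraries and 143 and 147 in the Ctrl libraries, a log2 fold change of -1.10 (SE 0.22, adjusted p = 0.011). In the RIP-seq inputs, Lsm1 measured 9931 and 14731 CPM in the FLAG libraries against 16.3 and 16.1 CPM in the control libraries, so the control inputs hold no excess of the Lsm1 mRNA that their label names. The RNA-seq libraries held 4636492 to 13968315 estimated counts each, and the RIP-seq libraries 9865512 to 31586450. Of these totals, FLAG IP replicate 1 had 12.7% in repeats, compared with 2.63% in FLAG IP replicate 2, and the scaling factor was 1.87 in the former and between 0.872 and 1.06 in all other libraries. Of the 17 oocyte and zygote markers in the files, none was at 0 throughout the RNA-seq libraries, and their summed level was 20367 to 22317 CPM in Lsm1_KD and 17685 to 21699 CPM in Ctrl. Single markers moved both ways, with Ooep and Npm2 higher (log2 fold change 1.73 and 1.19) and Gdf9 and Zp1 lower (-1.08 and -0.95, adjusted p = 0.017 and 0.040) in Lsm1_KD. The 14 cumulus and granulosa cell markers summed to 38.6 to 59.3 CPM in Lsm1_KD and 47.2 to 51.8 CPM in Ctrl, and 7 of them, among them Fshr, Lhcgr, Foxl2 and Amh, were at 0 in all RNA-seq libraries. Sperm markers, 5 of 7 of which were at 0 (Prm1 and Tnp1 included), reached 7.55 to 11.4 CPM in Lsm1_KD and 3.11 to 3.15 CPM in Ctrl. The 8 blood and immune markers, of which Lyz2 was at 0, summed to 3.88 to 6.47 CPM in Lsm1_KD and 2.08 to 9.21 CPM in Ctrl. The part of these cells in the differences given next was not tested.

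The 10 genes lie within 563 kb of chromosome 9 (GRCm38, chr9:109139454-109702700) and are all read from the minus strand. From the low end of the interval their order is Fbxw21, Fbxw13, Fbxw20, Fbxw14, Fbxw22, Fbxw16, Fbxw19, Fbxw15, Fbxw24 and Fbxw18, with Fbxw28 between Fbxw14 and Fbxw22. Each RefSeq transcript of the 10 genes has 10 exons, except a shorter Fbxw14 variant with 9, and the coding lengths run from 1242 to 1410 bases. Over the 45 pairs of genes, the transcripts were 69.3% to 87.7% identical in a global alignment, with a median of 82.6%. Fbxw13 and Fbxw21 were the most alike, and Fbxw22 and Fbxw24 the least. Unmatched length counts as difference in this measure. The transcript of Fbxw22 has 1827 bases in the reference and that of Fbxw24 1490, with 1401 coding bases in each, and pairs with Fbxw22 reached at most 76.0%. Likeness between the genes bears on the counts, since a read that fits several genes is divided among them by an estimate. For 9 of the genes, 14.8% to 27.5% of the 31-base windows of the transcript also occurred in another gene of the cluster. Fbxw14 was the exception, with 83.1% of the windows of its longer variant shared, mostly with Fbxw28, to which that variant was 98.8% identical.

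The upstream regions of the genes are alike too. RefSeq promoter windows, from 250 bases before to 50 after the annotated start, were at hand for 8 of the 10 genes, and Fbxw13 and Fbxw22 are not in that table. Over the 28 pairs of windows the identity was 65.3% to 92.4%, with a median of 82.7%, as the annotated starts place them. An E-box, searched as CANNTG, which reads the same on both strands, was found in 8 of 8 windows and in 72.1% of 27025 promoter windows of all genes. The form CAGCTG was found in 8 of 8 windows against 16.1% of all. The letters TTTAAA, picked after the windows had been seen, stood in 7 of 8 windows and in 13.2% of all. TATAAA and the NOBOX element TAATTG, searched on both strands, were in 0 of 8 windows, against 14.2% and 8.15% of all, and CCAAT was in 1 of 8 against 37.9%. The CANNTG search includes every CAGCTG. As the 8 windows are so much alike, none of these counts rests on 8 independent windows. The windows of the 4 genes that passed the test in Lsm1_KD (described further on) are shown to let a reader see how much of the sequence they share, 5′ to 3′ on the minus strand of GRCm38.p6, with the E-boxes in capitals.
Fbxw24, chr9:109626010-109626309: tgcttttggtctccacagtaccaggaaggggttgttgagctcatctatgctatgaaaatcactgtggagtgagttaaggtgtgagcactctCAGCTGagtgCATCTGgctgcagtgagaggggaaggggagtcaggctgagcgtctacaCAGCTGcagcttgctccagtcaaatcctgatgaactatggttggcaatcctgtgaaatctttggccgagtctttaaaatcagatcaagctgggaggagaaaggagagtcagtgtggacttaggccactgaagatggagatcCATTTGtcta
Fbxw19, chr9:109495805-109496104: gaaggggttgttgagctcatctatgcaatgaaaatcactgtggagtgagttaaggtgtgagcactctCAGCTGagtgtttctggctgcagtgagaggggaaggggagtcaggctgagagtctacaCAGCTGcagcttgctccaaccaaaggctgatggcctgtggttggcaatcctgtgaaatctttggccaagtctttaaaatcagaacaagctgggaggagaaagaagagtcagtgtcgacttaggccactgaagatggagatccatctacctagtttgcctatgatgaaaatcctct
Fbxw20, chr9:109234705-109235004: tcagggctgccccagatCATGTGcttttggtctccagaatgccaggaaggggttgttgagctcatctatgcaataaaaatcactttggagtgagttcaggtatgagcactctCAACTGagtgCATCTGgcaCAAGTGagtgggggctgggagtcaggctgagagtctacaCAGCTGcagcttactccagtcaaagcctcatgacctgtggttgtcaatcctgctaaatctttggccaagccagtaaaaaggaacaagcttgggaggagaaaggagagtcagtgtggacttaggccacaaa
Fbxw16, chr9:109449091-109449390: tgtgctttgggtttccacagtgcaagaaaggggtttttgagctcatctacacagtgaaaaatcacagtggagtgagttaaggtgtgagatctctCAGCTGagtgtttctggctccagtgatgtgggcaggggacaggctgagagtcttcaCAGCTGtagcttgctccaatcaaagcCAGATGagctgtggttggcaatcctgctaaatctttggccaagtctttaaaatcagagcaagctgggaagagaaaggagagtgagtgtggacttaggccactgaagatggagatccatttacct
These windows hold 4, 2, 5 and 3 E-boxes, in that order. Among them, those of Fbxw24 and Fbxw16 were 86.3% identical and those of Fbxw19 and Fbxw20 65.3%.

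The level of the genes spanned a wide range. In TPM, a share of all transcripts that takes their length into account, Fbxw24 measured 2351 and 2006 in the Ctrl libraries, and Fbxw14 2048 and 1845. Their values overlapped, and both lay above 99.6% of the features listed above 0. Fbxw19 followed at 443 and 458 TPM, Fbxw22 at 460 and 437 TPM and Fbxw18 at 442 and 310 TPM. Neighbours in this middle group overlapped, and so did Fbxw20, at 335 and 262 TPM, with Fbxw18. Fbxw15 had 261 and 184 TPM, just under the lower value of Fbxw20, and overlapped Fbxw16 at 183 and 200 TPM. Fbxw21, at 102 and 92.6 TPM, and Fbxw13, at 17.4 and 5.20 TPM, were apart from the genes above them. The estimated counts behind these values were 22.3 to 404 for Fbxw13 and 170 to 19656 for the other genes over the 12 libraries.

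**Figure D1:**
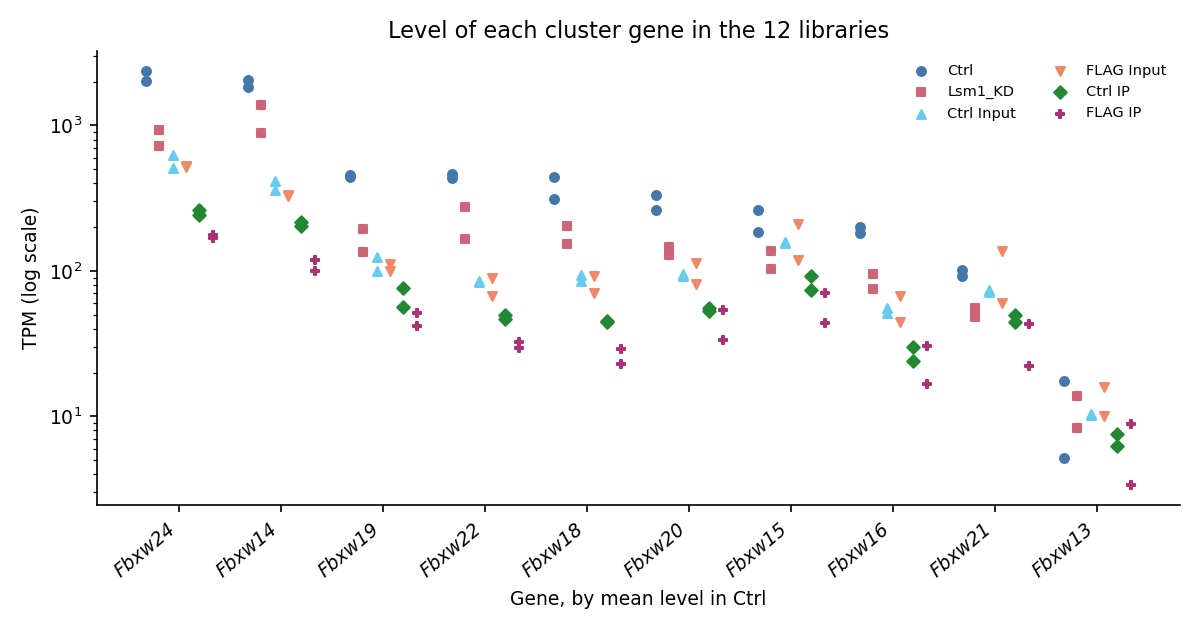
Level of each cluster gene in each of the 12 libraries, in TPM on a logarithmic axis, with genes ordered by their mean level in Ctrl and 1 point per library. Fbxw24 and Fbxw14 hold the first places in each of the 6 groups, in turned order in Lsm1_KD, and Fbxw13 is lowest in each, with 17.4 and 5.20 TPM in Ctrl. RNA-seq and RIP-seq libraries were made with different kits and their heights are not to be compared.

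The inputs of the RIP-seq, made with another kit, gave the same first and last places. Fbxw24 measured 508 and 625 TPM in the control inputs and 530 and 519 TPM in the FLAG inputs, and Fbxw13 10.2 and 10.4 TPM in the former and 16.0 and 10.1 TPM in the latter. Fbxw15 took the third place in both input groups, at 156 and 159 TPM in the control inputs, and the seventh in Ctrl. Fbxw16, at 51.4 and 55.5 TPM in the control inputs, had the ninth place there and the eighth in Ctrl. Since the kit and the injected RNA both differ between the RNA-seq and the inputs, the change of place cannot be told apart from either.

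On Lsm1 knockdown, 4 of the 10 genes fell and none rose (edgeR; none was higher at an unadjusted p under 0.05 or by DESeq2 either). Fbxw24, Fbxw19, Fbxw16 and Fbxw20 were 1.77-fold to 2.25-fold lower in Lsm1_KD than in Ctrl, and a further 5 had values in both Lsm1_KD libraries below both Ctrl libraries without passing the test. Over all 11313 features tested, 4.73% passed as lower and 6.59% as higher (535 and 745 features), at an adjusted p under 0.05. The median log2 fold change of the 10 genes was -0.77 and that of all features 0.0060. Together the genes took 2254 and 1694 CPM of the Lsm1_KD libraries and 4007 and 3401 CPM of the Ctrl libraries, a sum 1.88-fold lower on average. In libraries of pooled zygotes, these are shares of the RNA sequenced, and fewer zygotes with the RNA and less RNA per zygote cannot be told apart.

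Fbxw24, which had the highest mean level in Ctrl, showed the smallest adjusted p. It measured 639 and 524 normalised CPM in the Lsm1_KD libraries and 1324 and 1189 in the Ctrl libraries. Both knockdown values lay under both control values by a wide margin, with a log2 fold change of -1.11 (SE 0.19, adjusted p = 0.0070).

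Fbxw19 measured 131 and 95.7 normalised CPM in Lsm1_KD and 244 and 266 in Ctrl. Its log2 fold change of -1.17 (SE 0.22, adjusted p = 0.0096) was the largest fall among the 10 genes. Fbxw24 and Fbxw19 were the 2 genes that passed the test with a fall of more than 1 on the log2 scale, as did 2.84% of all features.

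Fbxw16 measured 66.6 and 55.0 normalised CPM in Lsm1_KD and 105 and 121 in Ctrl, a log2 fold change of -0.89 (SE 0.23, adjusted p = 0.035). Fbxw20, at 102 and 95.2 against 192 and 158 normalised CPM, changed by -0.82 (SE 0.21, adjusted p = 0.034). The groups did not overlap for either gene.

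Fbxw18 stood at the threshold. Its values were 142 and 113 normalised CPM in Lsm1_KD and 254 and 188 in Ctrl, with a log2 fold change of -0.79 (SE 0.23, adjusted p = 0.050049), which does not pass. Fbxw22 measured 239 and 150 normalised CPM against 326 and 325, with a log2 fold change of -0.75 (SE 0.24, adjusted p = 0.069). The Lsm1_KD libraries differed more from each other for this gene than the Ctrl libraries did.

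Fbxw14, Fbxw15 and Fbxw21 had smaller differences of the same sign. Fbxw14 measured 864 and 578 normalised CPM in Lsm1_KD and 1110 and 1048 in Ctrl (log2 fold change -0.58, adjusted p = 0.115), and is taken up by transcript variant below. Fbxw15 measured 95.1 and 74.9 against 148 and 109 normalised CPM, and Fbxw21 37.8 and 35.0 against 57.2 and 54.8, with log2 fold changes of -0.60 and -0.62 (adjusted p = 0.139 and 0.145). The 95% intervals of these differences ran from -1.19 to -0.058, so the falls that passed in Fbxw16 and Fbxw20 lie within them.

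Fbxw13 was the one gene with a positive difference. It measured 9.35 and 5.97 normalised CPM in Lsm1_KD and 9.77 and 3.03 in Ctrl, so that the groups overlapped, and its interval of -1.20 to 1.64 on the log2 scale was the widest of the 10. In all, 9 of the 10 genes had both Lsm1_KD libraries below both Ctrl libraries, as did 28.6% of all features tested.

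**Figure D2:**
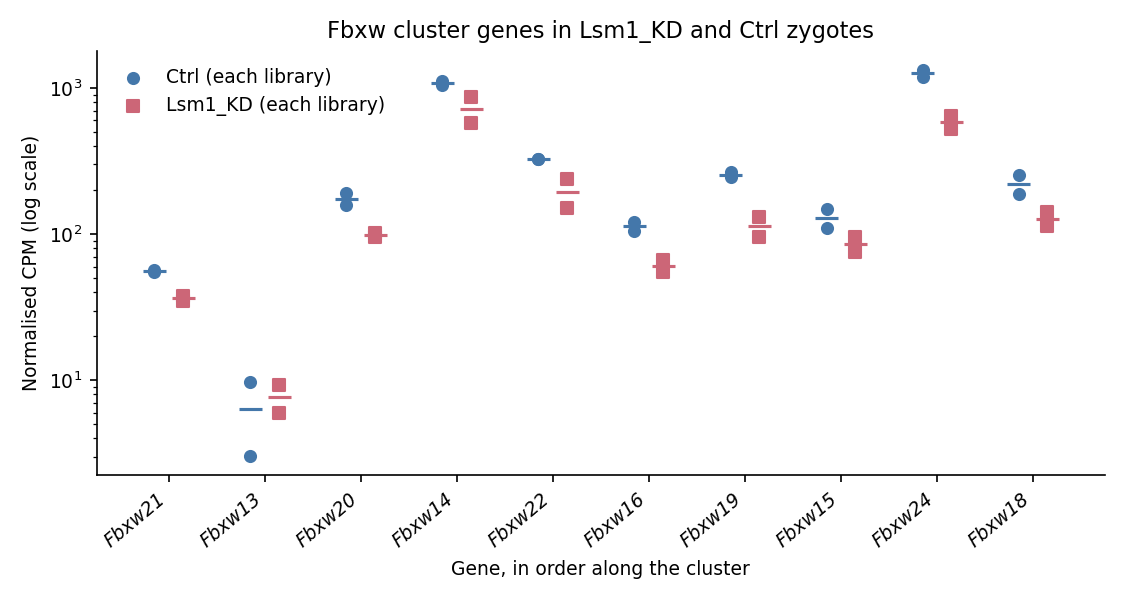
Normalised CPM of each cluster gene (logarithmic axis) in the Ctrl and Lsm1_KD libraries, with 1 point per library and a bar at the mean of 2. The Lsm1_KD points lie below the Ctrl points for 9 genes, and for Fbxw13, at 3.03 to 9.77 normalised CPM, they overlap.

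**Figure D3:**
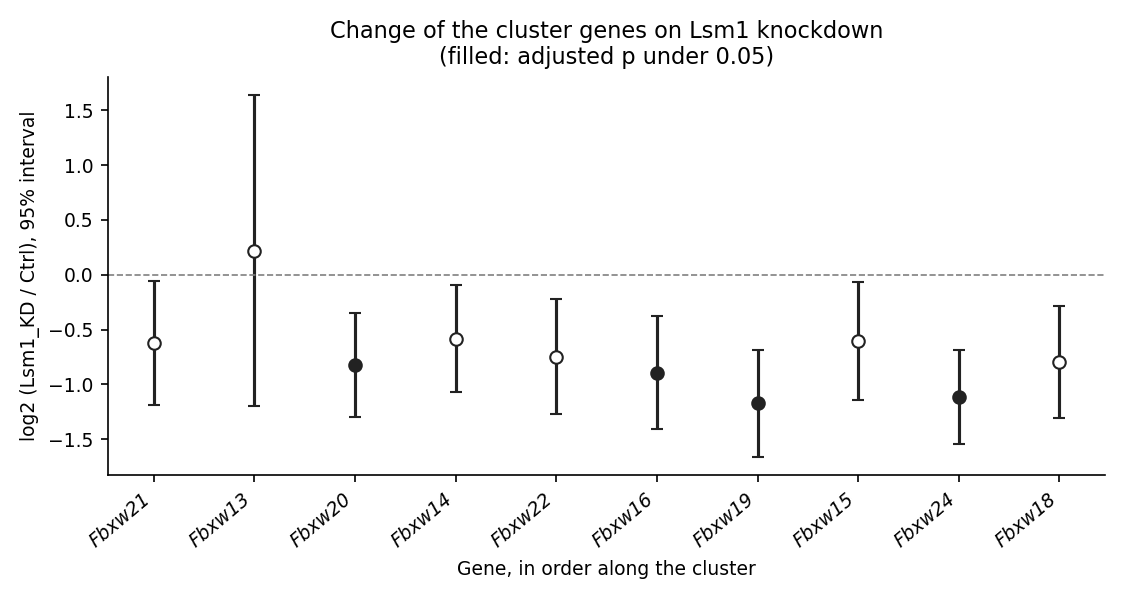
Log2 fold change of Lsm1_KD over Ctrl for each cluster gene with its 95% interval from the fit over all features, in order along the chromosome. Filled points passed an adjusted p under 0.05 (Fbxw20, Fbxw16, Fbxw19 and Fbxw24), and the interval of Fbxw13 is the widest and spans 0.

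The number of genes that pass was not the same when 1 library was left out, which leaves a group with 1 library that is assumed to vary like the other group. It was 1 (Fbxw24) without Lsm1_KD replicate 2, where the share of all features called lower was 1.65%, and 6 without Lsm1_KD replicate 1, where that share was 4.35%. It was 3 without Ctrl replicate 1 (4.42% of all) and 4 without Ctrl replicate 2 (2.91% of all). Lsm1_KD replicate 1 was also the shallowest library, with 4636492 estimated counts. When TPM values were compared by limma on log2(TPM + 1), the median of all features moved to -0.23 and that of the 10 genes to -1.07, and calls over all features went from 745 higher and 535 lower to 433 higher and 864 lower.

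Fbxw14 is quantified as 2 transcript variants, and they moved apart. NM_015793 has 10 exons and NM_001311159 lacks the sixth, a coding exon of 159 bases, which keeps the reading frame, at chr9:109277188-109277346 of GRCm38.p6. The exon is shown because the shorter variant lacks it. Below it stand the 30 bases across the junction that only the variant without it has, where capitals mark the bases after the junction.
Fbxw14 exon 6, minus strand: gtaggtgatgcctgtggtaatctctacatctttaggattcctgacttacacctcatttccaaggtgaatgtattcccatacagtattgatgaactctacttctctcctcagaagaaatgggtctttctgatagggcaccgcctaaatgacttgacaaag
Fbxw14 junction of exon 5 and exon 7: ggcccgattgtcttgGTGTTTTACATGAGC
NM_015793 measured 163 and 103 normalised CPM in the Lsm1_KD libraries and 745 and 661 in the Ctrl libraries. NM_001311159 measured 701 and 475 normalised CPM in Lsm1_KD and 365 and 387 in Ctrl. The first was lower and the second higher in both knockdown libraries, with log2 fold changes of -2.44 and 0.62 in a fit on single transcripts.

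Of the Fbxw14 counts, the variant with exon 6 made up 18.9% and 17.8% in Lsm1_KD and 67.1% and 63.1% in Ctrl. In the 8 RIP-seq libraries its share was 60.2% to 67.2%, apart from 37.9% in FLAG IP replicate 1. The pattern was singled out after the values had been seen, and in the fit on single transcripts edgeR called no transcript at all, with an adjusted p of 0.094 for NM_015793 and 0.257 for NM_001311159. DESeq2 on the same transcripts, added after seeing the data, called 891 higher and 952 lower, gave an adjusted p of 4.7e-13 for NM_015793, and did not call NM_001311159 (adjusted p = 0.125).

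The split rests on an estimate, because Fbxw28 carries the same exon. All 129 of the 31-base windows within exon 6 also occur in Fbxw28, and no window is particular to NM_015793, while 27 windows across the junction occur only in NM_001311159. The counts of Fbxw14 and Fbxw28 together do not depend on how reads are divided between the longer variants. The count of the variant without exon 6 is still such an estimate, so its share in this total is not free of the split. Of the total, the variant without exon 6 made up 43.3% and 43.2% in Lsm1_KD and 16.7% and 18.1% in Ctrl. It was 12.5% to 15.5% in the 6 RIP-seq libraries other than the FLAG IP, and 23.2% and 13.7% in the FLAG IP. The share in the 2 Lsm1_KD libraries lay above that in each of the other 10. The total also takes in a second Fbxw28 variant, NM_001177419. The other variant, NM_001177420, made up 94.2% to 96.3% of Fbxw28 counts in the RNA-seq and 27.8% to 61.8% in the RIP-seq. The summed counts of the 2 genes measured 1618 and 1100 normalised CPM in Lsm1_KD and 2191 and 2134 in Ctrl, a log2 fold change of -0.67 (SE 0.22, adjusted p = 0.071).

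**Figure D4:**
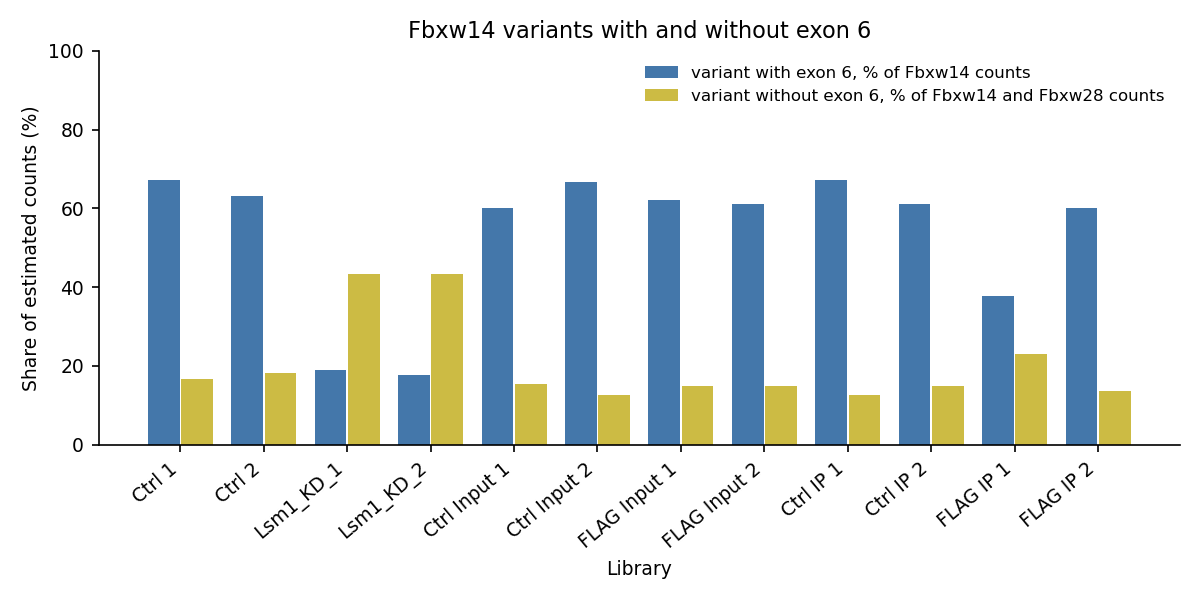
Share of estimated counts (%) in each of the 12 libraries, for the Fbxw14 variant with exon 6 among all Fbxw14 counts (blue) and for the variant without exon 6 among the counts of Fbxw14 and Fbxw28 together (yellow). Lsm1_KD has 18.9% and 17.8% in blue and 43.3% and 43.2% in yellow, apart from the other 10 libraries in both.

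In the pulldown, the 10 genes were lower in the FLAG IP than in the FLAG Input. Summed over the genes, the FLAG IP held 730 and 829 CPM and the FLAG Input 1686 and 1556 CPM, which is 2.08-fold lower on average. In the control, the IP held 1369 and 1359 CPM and the Input 1668 and 1561 CPM, 1.18-fold lower. Of the 10 genes, 6 passed as lower in FLAG IP over FLAG Input, where 5.59% of 18925 features passed as lower and 21.3% as higher, and the median log2 ratio of the genes was -1.39 against 0.49 for all features. None of the 10 passed in Ctrl IP over Ctrl Input, where edgeR called 0.00528% of features lower and 2.18% higher, no member had an unadjusted p under 0.05, and DESeq2 called none of them either. All 10 log2 ratios were negative there too, with a median of -0.29 against 0.12. The split of calls over all features in FLAG IP over FLAG Input, 4035 higher and 1057 lower, turned to 493 and 2352 with limma on log2(TPM + 1) and to 3127 and 4714 with a length trend taken out, and in both 9 of the 10 genes were called lower.

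Fbxw21 had the lowest ratio. It measured 28.9 and 40.6 normalised CPM in the FLAG IP and 147 and 75.6 in the FLAG Input, a log2 ratio of -1.68 (SE 0.41, adjusted p = 0.016), and 72.2 and 81.9 in the control IP against 86.7 and 75.2 in the control Input. Its FLAG groups did not overlap and its control groups did. Fbxw18 measured 20.1 and 43.1 normalised CPM in the FLAG IP and 102 and 90.7 in the FLAG Input (log2 ratio -1.61, adjusted p = 0.019), and Fbxw15 47.4 and 81.1 against 228 and 151 (log2 ratio -1.56, adjusted p = 0.030). In each, both IP libraries were under both inputs, and the normalised values of the IP libraries differed by a wide margin. In TPM, FLAG IP replicate 1 was the higher for both, at 29.1 against 22.9 for Fbxw18 and 70.0 against 43.9 for Fbxw15.

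Fbxw16, Fbxw13 and Fbxw20 were the other genes to pass, with log2 ratios of -1.34, -1.30 and -1.20 (adjusted p = 0.019, 0.029 and 0.042). Fbxw13 measured 5.95 and 6.22 normalised CPM in the FLAG IP and 17.2 and 12.7 in the FLAG Input. Its FLAG IP libraries were the closest of the 10 genes in normalised CPM, but not in TPM, at 8.86 and 3.39. Fbxw24 measured 118 and 310 normalised CPM in the FLAG IP and 570 and 655 in the FLAG Input, with a log2 ratio of -1.52 (SE 0.61, adjusted p = 0.077). Fbxw14, Fbxw22 and Fbxw19 had log2 ratios of -1.43, -1.19 and -1.003 with adjusted p values of 0.085, 0.077 and 0.137. For these 4 genes, the normalised value in FLAG IP replicate 1, which the scaling factor of 1.87 lowers, was far below that in replicate 2. In TPM, replicates 1 and 2 were closer, at 176 and 168 for Fbxw24 and 99.5 and 119 for Fbxw14. Fbxw22 had 29.4 and 32.4 TPM, and Fbxw19 41.8 and 51.7 TPM. In FLAG IP over FLAG Input, 10 of the 10 genes had both IP libraries below both inputs (30.3% of all features), and 7 of 10 in the control (27.2% of all).

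**Figure D5:**
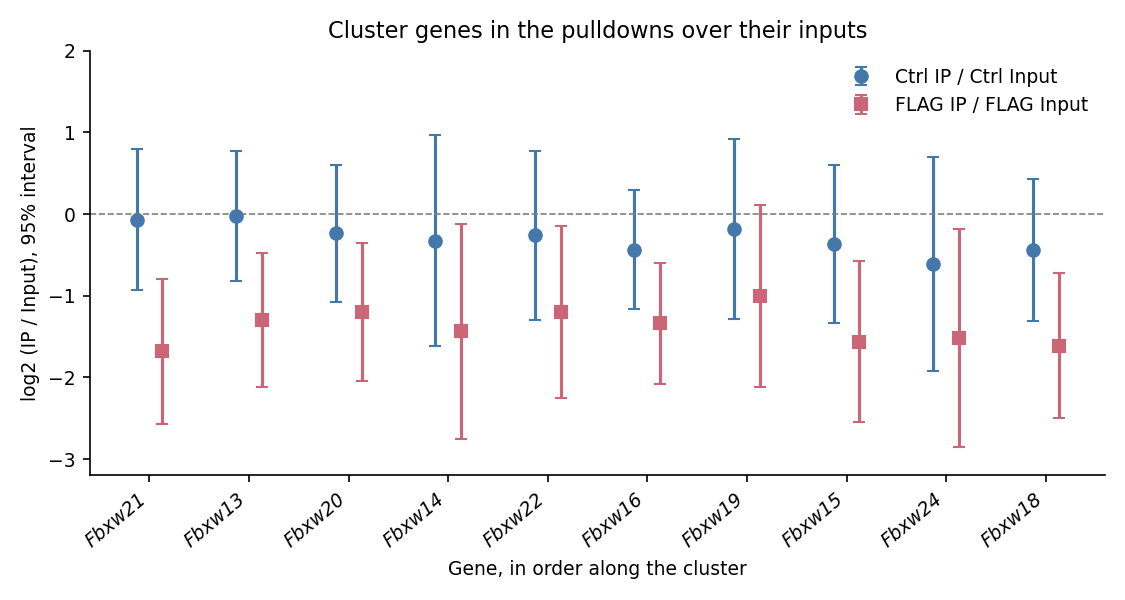
Log2 ratio of IP over Input for each cluster gene in the FLAG and in the control pulldown, with 95% intervals from 1 fit over the 8 RIP-seq libraries. The FLAG ratios, -1.68 to -1.003, lie below the control ratios, -0.61 to -0.022, for each gene, and their intervals overlap.

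Whether the FLAG ratio differed from the control ratio was tested as the difference of the log2 ratios. It was negative for 10 of 10 genes, with a median of -1.03 against 0.022 for all 18925 features, and none passed, as edgeR called 0% of all features in either direction. At an unadjusted p under 0.05 there were 757 features with a positive and 241 with a negative difference, 2 of the 10 genes (Fbxw13 and Fbxw21) among the latter, and DESeq2 called 1 feature in each direction and no gene of the cluster. For Fbxw21 the difference was -1.61 (95% interval -2.84 to -0.38, adjusted p = 0.789), and for Fbxw24 it was -0.91 (-2.76 to 0.95, adjusted p = 0.798). A lower recovery with the tagged protein than in the control is thus not shown for any of the genes after adjustment.

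These counts moved with single libraries, as did those of all features. In each such fit the group with 1 library left is assumed to vary like the others. Without FLAG IP replicate 1, 8 genes passed as lower in FLAG IP over FLAG Input (9.63% of all features) and none in the difference from the control, whose median was then -0.63. Without FLAG IP replicate 2, 10 passed in both, where 28.6% and 22.4% of all features were called lower. Without FLAG Input replicate 1 none of the genes (0.0337% of all features) and without FLAG Input replicate 2 a single gene, Fbxw21 (0.472% of all), passed in FLAG IP over FLAG Input, and without either control input 3 did (2.02% and 2.03% of all). As raw CPM, not scaled for composition, the summed level in the 2 FLAG IP libraries differed little (730 and 829 CPM), whereas the factor of 1.87 lowers the normalised values of replicate 1. The totals behind the raw values were unlike in composition. Lsm1 measured 11125 CPM in FLAG IP replicate 1 and 121440 CPM in replicate 2, and repeats made up 12.7% and 2.63%. The part of either in the raw sums was not tested.

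Markers of the oocyte moved in the same direction as the 10 genes in the pulldown. The 17 oocyte and zygote markers had a median log2 ratio of -1.34 in FLAG IP over FLAG Input, with 5 called lower and 0 higher, and their sum was 4331 to 5418 CPM in the FLAG IP and 9612 to 10558 CPM in the FLAG Input. Among the cumulus and granulosa cell markers, 12 of 14 were tested, 5 were called higher and the median log2 ratio was 3.34, with sums of 77.9 to 162 CPM in the FLAG IP and 96.6 to 115 CPM in the FLAG Input, none of them at 0 throughout. Of the blood and immune markers, 2 of 4 tested were called higher, with sums of 5.64 to 51.5 CPM against 1.38 to 1.77 CPM, and of 4 sperm markers none was called. Over all features, 5.59% were called lower and 21.3% higher here. The control pulldown had medians of the same sign in Ctrl IP over Ctrl Input, at -0.34 for oocyte, 1.68 for cumulus and 3.03 for blood markers, with 0 called in each list. The part of these cell types in the low ratios of the Fbxw genes was not tested.

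No difference between FLAG Input and control Input was detected for the 10 genes. Log2 ratios were -0.18 to 0.46, with 5 negative and 5 positive, and edgeR called none of the 10 and 0% of all features (none of the 10 at an unadjusted p under 0.05, and none by DESeq2).

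The rest of the family and of the ligase held both rises and falls on Lsm1 knockdown, and some of the falls were as large as those of the cluster genes. Of 16 other Fbxw genes, 12 were tested, 1 was called lower and none higher, against 4.73% and 6.59% of all features. Their median log2 fold change was 0.025. The one was Fbxw28, the neighbour that shares most of its sequence with Fbxw14, at 638 ± 165 normalised CPM in Lsm1_KD and 1084 ± 4.0 in Ctrl (SD, n = 2), a log2 fold change of -0.77 (SE 0.21, adjusted p = 0.044). Without Lsm1_KD replicate 2 its adjusted p was 0.265. Of the same cluster, Fbxw26 and Fbxw27 had log2 fold changes of 0.070 and 0.24 (adjusted p = 0.921 and 0.537). Fbxw4, at 175 ± 69 normalised CPM in Lsm1_KD and 304 ± 64 in Ctrl, had a log2 fold change of -0.80 that did not pass (adjusted p = 0.090).

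Of 33 genes for the SCF core, its ubiquitin-conjugating enzymes and neddylation, 30 were tested and their median was -0.11. Of these, 6 were called higher and 3 lower, against 6.59% and 4.73% of all features. Rbx1, the RING subunit that recruits the ubiquitin-conjugating enzyme, rose from 209 ± 1.7 to 668 ± 139 normalised CPM (SD, n = 2), a log2 fold change of 1.68 (adjusted p = 0.0016). Skp1, the adaptor that binds every F-box protein, rose from 263 ± 34 to 561 ± 38 normalised CPM (log2 fold change 1.09, adjusted p = 0.0075). Cul1, the scaffold, measured 2283 ± 695 normalised CPM in Ctrl and 1342 ± 86 in Lsm1_KD, a log2 fold change of -0.77 that did not pass (adjusted p = 0.055). Gps1, a subunit of the COP9 signalosome that removes NEDD8 from cullins, and Cdc34, a ubiquitin-conjugating enzyme of SCF ligases, fell by 0.94 and 0.88 on the log2 scale (adjusted p = 0.013 and 0.017), and the call of Cdc34 was lost without Lsm1_KD replicate 2 (adjusted p = 0.063).

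Of 62 F-box genes of the Fbxl and Fbxo classes, 50 were tested and their median was -0.26. Of these, 1 was called higher and none lower (edgeR), against 6.59% and 4.73% of all features. The gene that rose was Fbxl14, whose protein carries leucine-rich repeats in place of the WD40 repeats, from 10.5 ± 3.4 to 45.0 ± 4.7 normalised CPM (SD, n = 2, log2 fold change 2.09, adjusted p = 0.0054).

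The 5 features most like Fbxw24 over the libraries had higher correlations with it than its cluster neighbours had. As a description over the 12 libraries, which share kits and depth within each experiment, the Pearson correlation of log2(CPM + 1) with Fbxw24, centred within the RNA-seq and within the RIP-seq, was highest for Nup35, a nuclear pore protein, at 0.996 of 11285 features compared. Chchd3, a mitochondrial inner membrane protein, followed at 0.992, Zzz3, a subunit of a histone acetyltransferase complex, at 0.991, Patj, a scaffold of cell polarity, at 0.989, and Lamb1, a laminin chain, at 0.988. Among the Fbxw genes the correlation was 0.971 for Fbxw18, 0.967 for Fbxw20 and 0.956 for Fbxw19, and lowest for Fbxw21 at 0.846 and for Fbxw13 at 0.476. Nup35 had log2 differences of -1.04 in Lsm1_KD over Ctrl (adjusted p = 0.0098) and -1.41 in FLAG IP over FLAG Input (adjusted p = 0.049), against -1.11 and -1.52 for Fbxw24. The same libraries gave the correlation by which Nup35 was picked, so these values are not separate from it.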

How the data were processed

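RNA-seq (Lsm1_KD, Ctrl) and RIP-seq (Ctrl Input, Ctrl IP, FLAG Input, FLAG IP) of zygotes were analysed, with 12 libraries in 6 groups of 2 taken from their labels. The RNA-seq libraries were made with the KAPA Stranded RNA-Seq Kit with RiboErase according to the labels, but from amplified cDNA with a KAPA HyperPlus kit according to the methods, and the RIP-seq libraries with the SMARTer Stranded Total RNA-Seq Kit v2. The authors deposited estimated counts and TPM values made with Salmon, whose version the methods name and the labels do not, on RefSeq transcripts and repeats, after trimming that the labels credit to Trimmomatic and the methods to Cutadapt. Of 37366 transcripts, 37249 were matched to a gene. Estimated counts were summed by gene and rounded.

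Features that passed filterByExpr were tested by edgeR 4.0.16 under R 4.3.3, with its quasi-likelihood method on TMM-scaled counts and 1 fit for each experiment, with Benjamini-Hochberg adjustment over all features and a threshold of 0.05. All tests were two-sided. The fits were run on simulated counts to check that known fold changes came back in the median, which does not test the calls given here. Alternatives used DESeq2 1.42.0 and limma 3.58.1 (log2(TPM + 1)), among others. Sequences and coordinates were read with Python 3.11.15 from RefSeq on GRCm38.p6. Depth was 4636492 to 31586450 estimated counts, and group means rest on 2 libraries.

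The genes, gene lists and tests were chosen with earlier results of these data known. Named were all 10 cluster genes, Lsm1, up to 4 genes with the smallest adjusted p under 0.05 in each list, and the 5 other features most like the cluster gene with the highest mean TPM, Fbxw24. Fbxw4, Fbxw26, Fbxw27, Cul1, the Fbxw14 variants and the single oocyte markers were named after their values were seen.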

Additional observations from a re-analysis of the deposited data

How the results depend on the processing

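The count of cluster genes called lower in Lsm1_KD, 4 in the report (4.73% of all features), was 5 with RLE size factors (4.84% of all), 6 with DESeq2 (6.98%), 5 with a length trend taken out (5%), 7 with limma on log2(TPM + 1) (7.64%) and 7 with no filter on low counts (5.55%). On single transcripts it was 0 with edgeR, which called none at all, and 6 with DESeq2, added after seeing the data (6.53%). Leaving out 1 library gave 1 to 6. With the replicate number as a block it was 2 (2.32% of all), and the numbers are not known to pair these libraries, whose same-numbered deviations correlated at -0.112. With crossed numbers, added after seeing the data, the block gave 8 (11% of all). No alternative called a gene of the cluster higher. In FLAG IP over FLAG Input, the count of 6 moved when 1 library was left out, as described above. With all libraries it was 9 with DESeq2 on genes (11.7% of all features called lower). On single transcripts it was 0 with edgeR (0.0113% of all) and 7 with DESeq2 (6.99%). With a replicate block it was 7 (10.1% of all, correlation of same-numbered deviations 0.115). The difference between the pulldowns, 0 in the report, was 0 to 10 without 1 library and 0 with a replicate block. In Ctrl IP over Ctrl Input, the count of 0 became 0 to 1 without 1 library and stayed at 0 with the block. The comparison of the inputs gave 0 calls among the 10 genes in 16 alternatives, over which log2 ratios ran from -0.30 to 0.96 and 8 genes changed sign at least once.

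Signs turned in few other cases, all without 1 library and none of them called. Fbxw13 in Lsm1_KD over Ctrl ranged from -0.39 to 1.31 on the log2 scale, and was -0.14 without Lsm1_KD replicate 1 and -0.39 without Ctrl replicate 2. In Ctrl IP over Ctrl Input, leaving out 1 library gave -0.18 to 0.12 for Fbxw13, -0.43 to 0.024 for Fbxw19 and -0.17 to 0.047 for Fbxw21. Among the other named genes, 74 alternative values kept their call and 3, of Fbxw28 and Cdc34, lost it. The causes were not tested. With 2 libraries a group, no outlier could be judged. In the RNA-seq, Fbxw13 had the lowest estimated counts of the cluster genes, 42.5 and 65.0 in Lsm1_KD and 145 and 22.3 in Ctrl. The part of depth in the spread of Fbxw13 was not tested.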
